A study of Mus musculus with 5 samples.

Results

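The genes described here encode the enzymes that cut and trim prohormones inside the cell, together with an inhibitor of one of them. The 7 members were chosen by symbol: the convertases Pcsk1, Pcsk2 and Furin, the carboxypeptidases Cpe and Cpd, the amidating enzyme Pam, and Pcsk1n, whose product proSAAS inhibits the convertase made from Pcsk1. All 7 were found among the 22042 genes of the bulk table and among the 27998 genes of the droplet matrix.

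The study profiled enteroendocrine cells (EECs), the hormone-secreting cells of the gut epithelium, of the mouse small intestine. Bulk RNA sequencing covered 12 libraries of C57Bl/6J mice aged 6 to 8 weeks that carried Cck-Cre and the reporter R26-LSL-tdTomato, which marks cells in which Cre has been active. Each library held the tdTomato+ cells, called CCK+, or the tdTomato- cells, called CCK-, of 1 mouse. The libraries carry letters, A to F, once in each population, and a letter was taken here as 1 of 6 mice, which the labels do not state and on which all within-mouse values rest. Mice A, B and F were fasted overnight, and mice C, D and E were fasted and then refed with Ensure, so that 4 groups of 3 libraries were formed. A single droplet library held tdTomato+ cells pooled from 4 untreated Neurog3-Cre; R26-LSL-tdTomato mice of the same strain, aged 6 weeks, and therefore has no replicate. All mice carried a Cre driver and the reporter. Both reporters are permanent, so they also mark cells that no longer use the driver gene, and the Neurog3 lineage includes epithelial cells that are not EECs. The RNA of the bulk libraries was amplified before sequencing.

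Most gut hormones are made as inactive precursors. In the secretory granule a convertase cuts the precursor after pairs of basic residues, a carboxypeptidase removes the basic residues left at the new end, and peptidylglycine monooxygenase, the product of Pam, turns a terminal glycine into the amide that CCK and secretin need for full activity. Pcsk1, Pcsk2, Cpe, Pcsk1n and most Pam activity belong to this regulated pathway of endocrine cells and neurons, whereas Furin and Cpd act in the trans-Golgi network of nearly all cells.

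In GRCm38, the build of the droplet data, the members lay on 7 chromosomes. By the GENCODE annotation the whole genes were at chr13:75089826-75134861 on the plus strand for Pcsk1, chr2:143546156-143816285 on the plus strand for Pcsk2, chrX:7919822-7924410 on the plus strand for Pcsk1n, and chr7:80388585-80405436 on the minus strand for Furin. Cpe was at chr8:64592542-64693054, Pam at chr1:97795114-98095646 and Cpd at chr11:76778424-76847018, all on the minus strand.

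The bases just before the start site are shown for the 3 convertases and for proSAAS, since these genes ranged from a large difference between CCK+ and CCK- cells to none that passed the test. RefSeq (GRCm38.p6) promoters matched 6 of the 7 members. Each sequence runs 5′ to 3′ on the gene's strand and ends at the base before the RefSeq start, except that Pcsk1 ends before the GENCODE start of its gene, which lies upstream of the RefSeq one. Positions count back from the RefSeq start, and capitals mark TGACG or its reverse complement CGTCA, the core letters of the cAMP response element. Pcsk1 is chr13:75089607-75089825, Pcsk2 is chr2:143545883-143546132, Pcsk1n is chrX:7919572-7919821 and Furin is chr7:80405437-80405686.
Pcsk1: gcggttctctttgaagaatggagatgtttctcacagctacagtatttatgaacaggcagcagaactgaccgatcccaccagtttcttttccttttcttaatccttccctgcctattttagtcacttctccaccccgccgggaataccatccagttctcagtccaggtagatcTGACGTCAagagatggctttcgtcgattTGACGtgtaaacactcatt
Pcsk2: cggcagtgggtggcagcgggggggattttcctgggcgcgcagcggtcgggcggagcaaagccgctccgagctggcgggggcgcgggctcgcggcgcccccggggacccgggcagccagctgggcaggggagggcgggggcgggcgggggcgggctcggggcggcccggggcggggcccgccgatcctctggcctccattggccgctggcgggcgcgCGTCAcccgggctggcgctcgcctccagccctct
Pcsk1n: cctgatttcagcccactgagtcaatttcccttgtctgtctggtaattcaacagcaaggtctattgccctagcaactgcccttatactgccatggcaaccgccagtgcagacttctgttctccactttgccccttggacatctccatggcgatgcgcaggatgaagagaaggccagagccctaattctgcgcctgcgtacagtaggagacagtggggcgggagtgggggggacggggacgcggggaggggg
Furin: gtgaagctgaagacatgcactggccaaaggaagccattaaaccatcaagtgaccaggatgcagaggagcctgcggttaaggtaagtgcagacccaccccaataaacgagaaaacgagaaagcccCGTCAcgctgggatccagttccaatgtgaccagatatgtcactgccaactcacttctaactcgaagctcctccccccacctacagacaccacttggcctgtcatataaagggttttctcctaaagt
Pcsk1 held the full palindrome TGACGTCA, 78 to 71 bases before its start, and a further TGACG from 50 to 46 bases before it. On either strand, TGACGTCA was found in 1.55% and TGACG in 17.8% of 32851 mouse promoters over the same 250 bases. Pcsk2 and Furin each held 1 CGTCA, at 34 to 30 and at 126 to 122 bases before the start, and Pcsk1n held none. Pcsk2 also held 7 copies of the GC box GGGCGG, which 32.7% of promoters held at least once on either strand, and the Furin sequence shown held a TATAAA, found in 12.4%. RefSeq lists another start for Furin, with chr7:80402813-80403062 before it. These 250 bases held 2 GC boxes, no TATAAA and no TGACG or CGTCA. A match to these letters is a description of the sequence and not a binding site.

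The bulk values are gene counts divided by the authors' normalization factors, called normalized counts here, and they are not divided by gene length, so levels are compared between libraries and not between genes. Tests used limma on log2(normalized count + 1) with Benjamini-Hochberg adjustment over all 22042 genes, and a gene was called at an adjusted p under 0.05. Cck itself ranged from 14837 to 32592 in the CCK+ and from 27.6 to 86.0 in the CCK- libraries, in keeping with the table's labels. The summed level of 8 endocrine markers was 60731 to 230014 in CCK+ and 1231 to 2644 in CCK- libraries, and that of 8 enterocyte markers was 125415 to 310638 and 334526 to 474697, so neither population held 1 cell type alone. In bulk RNA, fewer cells of a type and less RNA per cell cannot be told apart. All 8 immune markers were also higher in CCK+ libraries, summing to 4840 to 9351 against 411 to 1013, and 3 of 7 measured neuron and glia markers were, summing to 14.1 to 48.2 against 1.23 to 40.3. Of 4 crypt and cycling markers, 2 were higher in CCK+ libraries, summing to 1269 to 3469 against 716 to 2149. With refeeding, 1 of these 4 was called higher in CCK+ and 2 in CCK- cells. The part of these cells in the levels below was not tested.

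The first comparison asked which of these genes were enriched in CCK+ cells. Pcsk1, Pcsk2, Pcsk1n, Cpe and Pam were higher in CCK+ than in CCK- libraries, Cpd was slightly lower, and Furin did not pass the test. Among all genes 19.6% were called higher and 14.1% lower. The median change of the 7 members was 2.30 on the log2 scale, against 0.0900 over all genes.

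**Figure D1:**
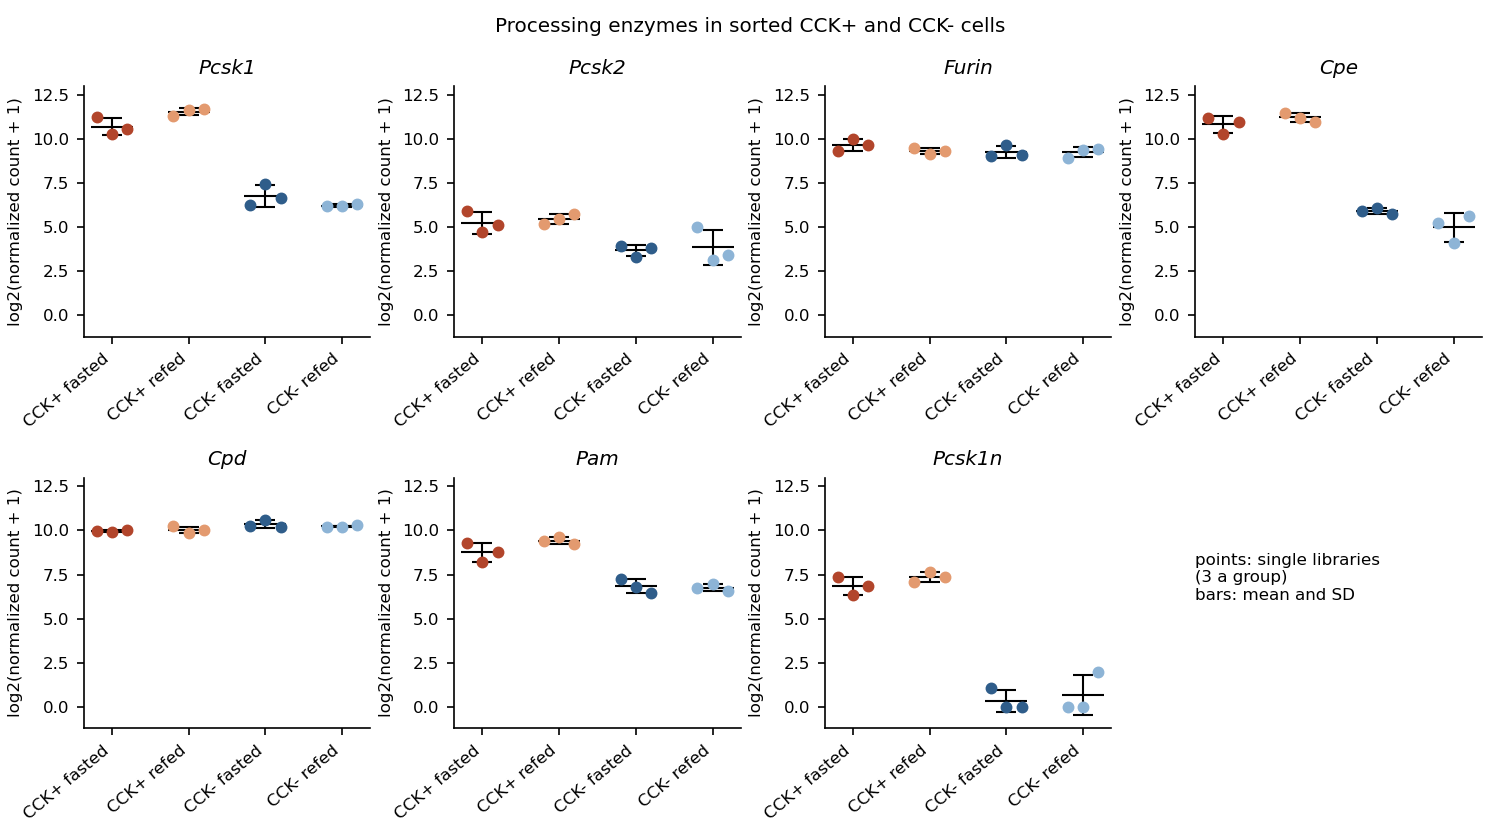
Each panel plots 1 member as log2(normalized count + 1) by group, with a point for each of 3 libraries and bars for their mean and SD. Pcsk1, Pcsk1n, Cpe and Pam lie higher in all 6 CCK+ than in all 6 CCK- libraries, whereas Furin and Cpd overlap between them.

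Pcsk1 encodes the convertase that cuts most precursors in EECs. Its normalized counts in CCK+ cells were 2390, 1248 and 1524 in fasted mice A, B and F and 2515, 3223 and 3258 in refed mice C, D and E. In CCK- cells of the same mice they were 74.4, 173, 98.1, 71.3, 72.1 and 77.5. Every CCK+ library was above every CCK- library, which held for 9.74% of all genes. The means were 2359 ± 838 and 94.5 ± 39.9 (SD, n = 6), a 24.6-fold difference (log2 4.62, SE 0.20, adjusted p = 7.14e-10). Within mice the ratio ran from 7.16 in fasted mouse B to 44.1 in refed mouse D.

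Pcsk2, the convertase best known from pancreatic alpha cells and neurons, was detected at low counts. Its CCK+ libraries held 60.0, 25.3 and 33.5 in the fasted and 35.6, 43.1 and 51.7 in the refed mice. The CCK- libraries held 14.2, 9.08 and 13.1 and then 30.8, 7.91 and 9.55. Refed mouse C stood apart from the other CCK- libraries, and its 30.8 lay above the lowest CCK+ value, so the populations overlapped. Pcsk2 was 3.0-fold higher in CCK+ cells (log2 1.59, SE 0.36, adjusted p = 0.00341) and higher within 6 of 6 mice, with a ratio of 1.15 in mouse C. Fitted on the libraries of 1 feeding state alone, the difference was 1.56 in fasted and 1.61 in refed mice and passed in neither (adjusted p = 0.0881 and 0.0981).

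Furin, the convertase of the constitutive pathway, was at 628, 1027 and 820 in fasted and 719, 572 and 625 in refed CCK+ libraries. The CCK- libraries held 514, 791 and 543 when fasted and 479, 672 and 686 when refed. The ranges overlapped and the direction differed between mice, with CCK+ above CCK- in 4 of 6. The difference of 0.25 on the log2 scale (SE 0.15, adjusted p = 0.254) did not pass the test. It was 0.64 (adjusted p = 0.00230) when libraries were scaled to equal sums, a scaling that moved the median of all genes to 0.35.

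Cpe encodes the granule carboxypeptidase that trims the convertase products. In CCK+ cells it was at 2375, 1260 and 1965 in fasted and 2870, 2351 and 2017 in refed mice, and in CCK- cells at 58.4, 67.7 and 52.4 and at 36.6, 16.0 and 49.0. The populations were far apart in every mouse, from 18.4-fold in fasted mouse B to 138-fold in refed mouse D. The means of 2140 ± 539 and 46.7 ± 18.2 (SD, n = 6) differed 47.5-fold (log2 5.57, SE 0.23, adjusted p = 6.21e-10).

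Cpd, a membrane carboxypeptidase of the trans-Golgi network, ran the other way. Its CCK+ libraries held 990, 975 and 1034 when fasted and 1202, 942 and 1029 when refed, and its CCK- libraries 1218, 1546 and 1149 and then 1194, 1184 and 1247. All but 1 CCK+ library lay below the lowest CCK- library. Cpd was 1.22-fold lower in CCK+ cells (log2 change -0.29, SE 0.10, adjusted p = 0.0476), and only mouse C did not share that direction. This call was near the threshold: leaving out 1 library at a time, it was lost in 10 of 12 fits (adjusted p 0.0195 to 0.0853) and held without CCK+ refed mouse C or CCK- fasted mouse F. It was also lost with the mouse as a replicate block (adjusted p = 0.0506). With libraries scaled to equal sums the change was 0.11 in the other direction (adjusted p = 0.485).

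Pam, which amidates peptides such as CCK and secretin, was at 626, 294 and 435 in fasted and 676, 782 and 596 in refed CCK+ libraries. CCK- libraries held 152, 110 and 86.8 and then 105, 122 and 92.5, all below the lowest CCK+ value. The 4.91-fold difference (log2 2.30, SE 0.19, adjusted p = 4.39e-07) was present in 6 of 6 mice, at ratios of 2.66 to 4.97 in the fasted and 6.36 to 6.39 in the refed mice.

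Pcsk1n was at 163, 80.1 and 115 in fasted and 136, 200 and 163 in refed CCK+ libraries. It was listed at 0 in 4 of the 6 CCK- libraries, and the other two, fasted mouse A and refed mouse E, held 1.11 and 2.98. The populations did not overlap, and the difference on the log2(normalized count + 1) scale was 6.60 (SE 0.43, adjusted p = 4.51e-08). With values near 0 in CCK- cells its size depended on the pseudocount and ranged from 3.79 to 7.36 over the settings tried, and it was called in each of them.

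The genes around the 7 members were counted by lists of their role. Of 5 other proprotein convertases none was called higher and 2 lower in CCK+ cells, at a median log2 change of -0.32. Pcsk5, a convertase of growth factor precursors, was at 704 to 1405 in CCK+ and 2133 to 2532 in CCK- libraries, 2.34-fold lower (log2 change -1.22, SE 0.11, adjusted p = 1.08e-06), and Pcsk4 was lower by a log2 change of -0.77 (SE 0.20, adjusted p = 0.00889). The Pcsk4 call was lost with equal sums (adjusted p = 0.126) and within either feeding state. Pcsk7 was not called (log2 -0.16, adjusted p = 0.585). So Pcsk1 and Pcsk2 were the convertases called higher among the 8 counted here.

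Of 8 other basic carboxypeptidases 6 were measured, 3 were higher and none was lower, at a median of 2.45. Cpn1, the catalytic subunit of plasma carboxypeptidase N, was at 42.6 to 107 in CCK+ and 4.29 to 9.32 in CCK- libraries (log2 3.43, SE 0.32, adjusted p = 1.37e-06). Cpb2 and Aebp1 were higher by 3.19 and 2.63 on the log2 scale (adjusted p = 0.000305 and 0.000634), and Cpb1 at 2.26 was not called (adjusted p = 0.129). The Cpb1 value rested on fasted CCK+ mouse A, at 526 where the other libraries held 0 to 4.13, and was 0.94 without it. In fasted mice alone the Cpb2 call was lost (adjusted p = 0.120).

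Of 8 genes that help convertases or sort granule proteins, 6 were higher and 1 was lower, at a median of 6.15. Scg5, the chaperone that the Pcsk2 product needs to become active, was at 82.1 to 328 in CCK+ and 0 to 3.96 in CCK- libraries (log2 6.60, SE 0.43, adjusted p = 4.48e-08). Scg2, Scg3 and Vgf, granule proteins of the granin family and its relatives, were higher by 8.36, 6.06 and 6.32 on the log2 scale (adjusted p = 1.18e-10, 6.82e-09 and 1.50e-08). The copper transporter gene Atp7a, which supplies copper to the Pam product, was lower, by a log2 change of -0.79 (adjusted p = 9.75e-05).

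Among 12 measured genes of other maturation steps, 8 were higher and 1, the protease gene Ctsh at -0.62, was lower. The tyrosylprotein sulfotransferase genes Tpst1 and Tpst2, whose products add the sulfate that CCK carries, were at 43.5 to 203 against 7.73 to 14.8 and at 83.3 to 131 against 12.2 to 36.0 (log2 3.34 and 2.23, adjusted p = 7.31e-07 and 3.09e-05). Qpct, which forms the cyclic glutamate found at the start of neurotensin, was higher by 4.61 (adjusted p = 6.93e-06), Ece2 by 2.37 (adjusted p = 0.00173) and the ghrelin acyltransferase gene Mboat4 by 1.74 (adjusted p = 0.0338). Ece2 was listed at 0 in all 6 CCK- libraries, and its change ranged from 0.62 to 3.11 over the settings tried, the call being lost in fasted mice alone (adjusted p = 0.272). The Mboat4 call was lost in 9 of 12 fits with 1 library left out (adjusted p 0.0139 to 0.0946) and within either feeding state.

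The 6 surface enzymes that cleave peptides outside the cell were all lower in CCK+ libraries, at a median of -1.27, among them Mme at -1.72 (adjusted p = 3.93e-06) and Dpp4, which inactivates incretins, at -1.40 (adjusted p = 4.44e-06). These are brush border enzymes, and the summed enterocyte markers were lower in the same libraries as given above. The part of enterocyte content in the enzyme levels was not tested. All 12 precursor genes that serve as substrates were higher, at a median of 6.73, with Cck at 8.81, Gcg at 8.83 and Gip at 8.84. Ghrl at 6.61 and Sst at 6.25 were among them, so the CCK+ libraries also held RNA of these hormone genes.

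**Figure D2:**
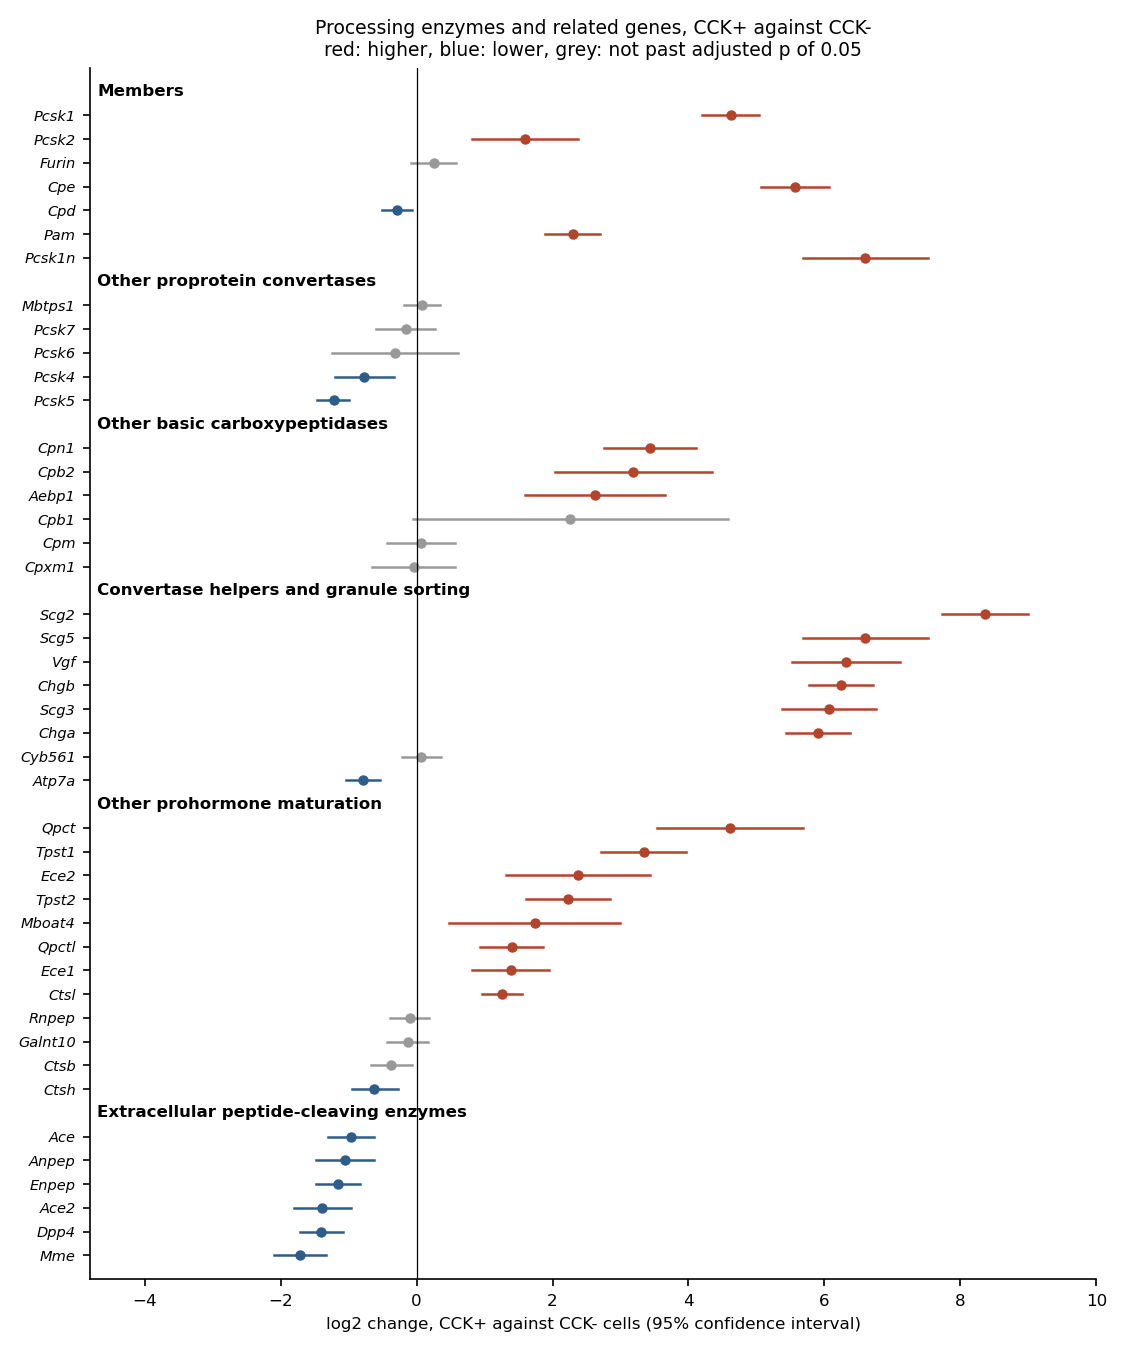
Log2 change in CCK+ against CCK- cells (horizontal axis) for the 7 members and the lists of related genes, with limma's 95% confidence intervals from 12 libraries; red is called higher, blue lower and grey not called at an adjusted p under 0.05. The members run from -0.29 for Cpd to 6.60 for Pcsk1n, and the surface enzymes at the foot all lie below 0.

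The second question was whether refeeding changed these genes. In CCK+ cells none of the 7 members was called between refed and fasted mice, where 2.55% of all genes were called, and the members' median change was 0.40 against 0.00813 over all genes. Pcsk1 came closest: its refed values of 2515 to 3258 all lay above its fasted values of 1248 to 2390, as was so for 10.8% of all genes. Its means were 2998 ± 419 and 1720 ± 596 (SD, n = 3), a 1.80-fold difference on the log2(normalized count + 1) scale (log2 0.85, SE 0.28). It failed the correction (adjusted p = 0.135, and 0.0752 to 0.393 with 1 library left out). No member lay wholly lower in refed libraries, as 8.61% of all genes did.

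Pam was 1.58-fold higher in refed CCK+ cells without passing the test (log2 0.66, SE 0.27, adjusted p = 0.226). Cpe, at log2 0.40 (SE 0.33, adjusted p = 0.584), and Pcsk1n, at 0.52 (SE 0.61, adjusted p = 0.729), had refed ranges that overlapped the fasted ones. Pcsk2 at 0.21 (SE 0.51, adjusted p = 0.891), Furin at -0.35 (SE 0.22, adjusted p = 0.459) and Cpd at 0.0743 (SE 0.15, adjusted p = 0.852) differed by less than 2 of their standard errors. The endocrine marker sum of the same libraries was 139320, 60731 and 99956 in fasted and 165525, 230014 and 209844 in refed mice, while the enterocyte sum was 184430, 310638 and 219646 and then 208656, 143376 and 125415. Most of the endocrine sum was Chgb, at means of 88929 in fasted and 183879 in refed CCK+ libraries. The means of Chga, Neurod1, Fev and Insm1 were also higher in refed mice. Those of Isl1 (267 and 179), Rfx6 (554 and 477) and Pax6 (581 and 570) were not, and none of the 8 markers was called. The endocrine marker sum thus moved with Pcsk1 but not all its markers did, and the part of endocrine content in that difference was not tested.

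In CCK- cells none of the 7 was called either, where 1.23% of all genes were. Cpe was at 52.4 to 67.7 in fasted and 16.0 to 49.0 in refed mice, without overlap, as was so for 8.18% of all genes in that direction (log2 change -0.92, SE 0.33, adjusted p = 0.242). No member lay wholly higher in refed libraries, as 8.05% of all genes did. Pcsk1 was lower by 0.55 on the log2 scale (log2 change -0.55, SE 0.28, adjusted p = 0.471), with fasted mouse B, at 173, above the other CCK- libraries. Furin at -0.000438, Pam at -0.10 and Cpd at -0.10 were nearly level.

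The feeding effect itself was compared between populations with an interaction term. It called no member and 1 gene (0.00454%) overall. Pcsk1 had the largest difference among the members, 1.40 on the log2 scale (SE 0.40, adjusted p = 0.637), followed by Cpe at 1.33 (SE 0.47, adjusted p = 0.723) and Pam at 0.75 (adjusted p = 0.793). As estimates whose difference was not called, the CCK+ to CCK- folds for Pcsk1 were 15.2 in fasted and 39.9 in refed mice. They were 30.0 and 75.3 for Cpe, and 3.78 and 6.38 for Pam. The endocrine marker sums of the CCK+ libraries, given above, were also higher in refed mice, and their part in these folds was not tested.

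None of the 8 helper genes or the 12 substrate genes was called with refeeding in either population. A few related enzymes were. Of the 5 other convertases, 1 was called in CCK+ cells: Pcsk5, at 1080, 1405 and 1242 in fasted and 946, 704 and 704 in refed CCK+ libraries (log2 change -0.67, SE 0.16, adjusted p = 0.0359). Its change in CCK- cells was -0.0312, but the interaction did not call the difference (log2 -0.64, adjusted p = 0.714).

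**Figure D3:**
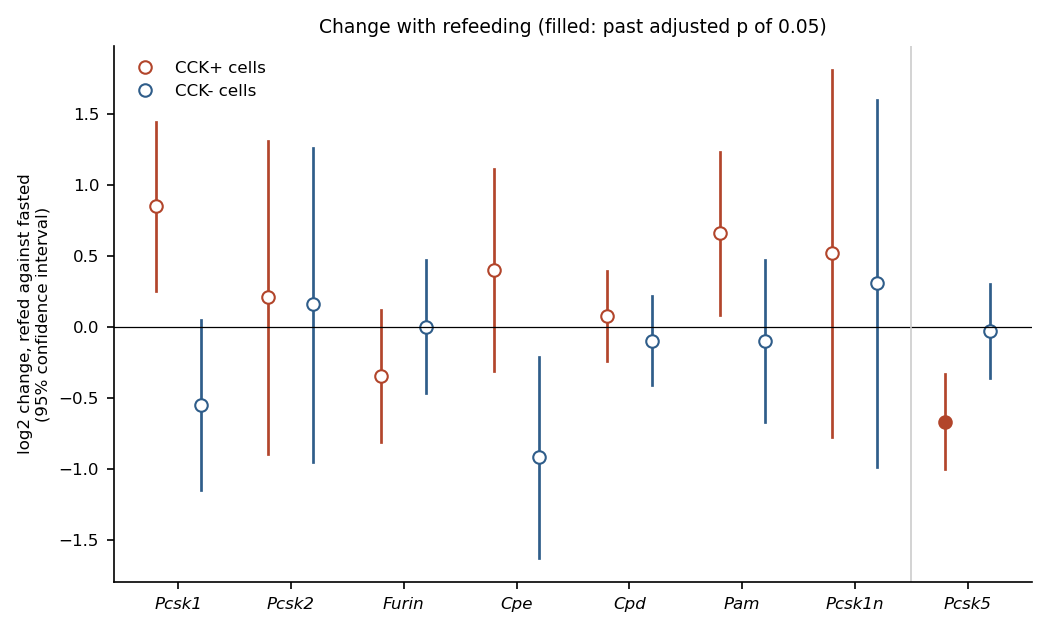
Log2 change in refed against fasted mice (vertical axis) for the 7 members and, right of the line, for Pcsk5, in CCK+ (red) and CCK- cells (blue), with limma's 95% confidence intervals; filled points passed an adjusted p under 0.05. No member is filled, with Pcsk1 at 0.85 in CCK+ and -0.55 in CCK- cells, and the filled point is Pcsk5 (-0.67) in CCK+ cells.

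The lysosomal protease gene Ctsl, whose product can also cut prohormones in granules, was at 542 to 722 in fasted and 980 to 1483 in refed CCK+ libraries (log2 0.93, SE 0.20, adjusted p = 0.0224). In CCK- libraries Ctsl was at 236 to 354 and then 423 to 525, also without overlap, and was not called. Ace, the angiotensin-converting enzyme gene, was at 12499 to 16249 in fasted and 4443 to 8701 in refed CCK+ libraries (log2 change -1.25, adjusted p = 0.0113). It was at 23417 to 24270 and then 13303 to 16605 in CCK- libraries, where it was not called. In CCK- libraries the carboxypeptidase gene Cpm was at 227 to 574 in fasted and 90.2 to 133 in refed mice (log2 change -1.60, adjusted p = 0.0305). In CCK+ libraries Cpm was at 175 to 404 and then 152 to 160, and was not called. The interaction called none of these genes, so no feeding effect particular to a population is read from them. Over 12 fits that each left out 1 library, the call was lost in 9 for Pcsk5, 5 for Ctsl, 4 for Ace and 10 for Cpm, and all 4 calls were lost in a fit of only the 2 groups compared.

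The droplet library showed which EECs carried each enzyme. It held 475960 barcodes with at least 1 unique molecular identifier (UMI, a tag that counts each captured RNA molecule once), of which 9451 passed the study's limits of over 1000 genes and a mitochondrial UMI share below 10%. The limits were applied here to all barcodes, and more cells passed than the study kept. Cells went to the first group whose limit they met, in UMIs per 10000: 1246 cells with Cck of at least 500, 2492 with Tph1, the gene of serotonin synthesis, of at least 10, 321 with Gip, Ghrl or Sst of at least 500, and 5392 others. More than 1 limit was met by 505 cells, 268 of them by Cck and Tph1, and doublets were not called. Near the limits lay 40 cells with Cck of 400 to 500 and 33 with 500 to 600, and 150 cells with Tph1 of 8 to 10 and 133 with 10 to 12.

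The 5392 other cells were mostly Muc2+ (4593), the mark of goblet cells, and 331 of them held at least 50 UMIs per 10000 of the granins Chga and Chgb. Summed over 8 genes, endocrine markers were at 110 UMIs per 10000 in the Cck group, 425 in the Tph1 group and 56.7 in the Gip, Ghrl or Sst group, and at 5.17 in Muc2+ cells. Median depth was 6296 UMIs in the Cck group, 3225 in the Tph1 group, 6549 in the Gip, Ghrl or Sst group and 7471 in the rest. The Cell Ranger 2 rule for calling cells gave a limit of 3892 UMIs here. At or above it lay 1125 Cck cells, 806 Tph1 cells, 290 of the Gip, Ghrl or Sst group and 4908 others. Hormone transcripts alone took 31.7% of UMIs in the Cck group, 35.0% in the Gip, Ghrl or Sst group and 6.60% in the Tph1 group, which lowers the level of every other gene in the first and the third. With 1 library there is no test between groups. Intervals are exact Poisson 95% intervals, or exact binomial ones for shares, and cover counting error only.

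In Cck cells 5 of the 7 members were at least 2-fold higher than in the rest, as were 24.1% of 12233 genes with at least 50 UMIs. Barcodes with 1 to 100 UMIs, which mostly hold free RNA, gave the make-up of that RNA, but not how much of it a cell held. The ratios were 35.6 (33.8 to 37.4) for Cpe, 19.3 (17.5 to 21.3) for Pam, 15.0 (13.9 to 16.2) for Pcsk1, 12.8 (12.1 to 13.5) for Pcsk1n and 3.66 (1.77 to 7.32) for Pcsk2. The rest held all 5 below their level in free RNA barcodes, and the part of free RNA in the rest was not tested. Pcsk2 in the Cck group itself was at 0.0182, from 15 UMIs, against 0.0249 in free RNA barcodes. Its ratio was 0.80 with doubled limits and 1.93 without cells that met more than 1 limit, so no enrichment of Pcsk2 is read from it. Furin was at 1.62 (1.38 to 1.90) and Cpd at 0.847 (0.770 to 0.929), and with hormone UMIs left out of the total these ratios were 2.36 and 1.23, which turned the direction for Cpd.

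**Figure D4:**
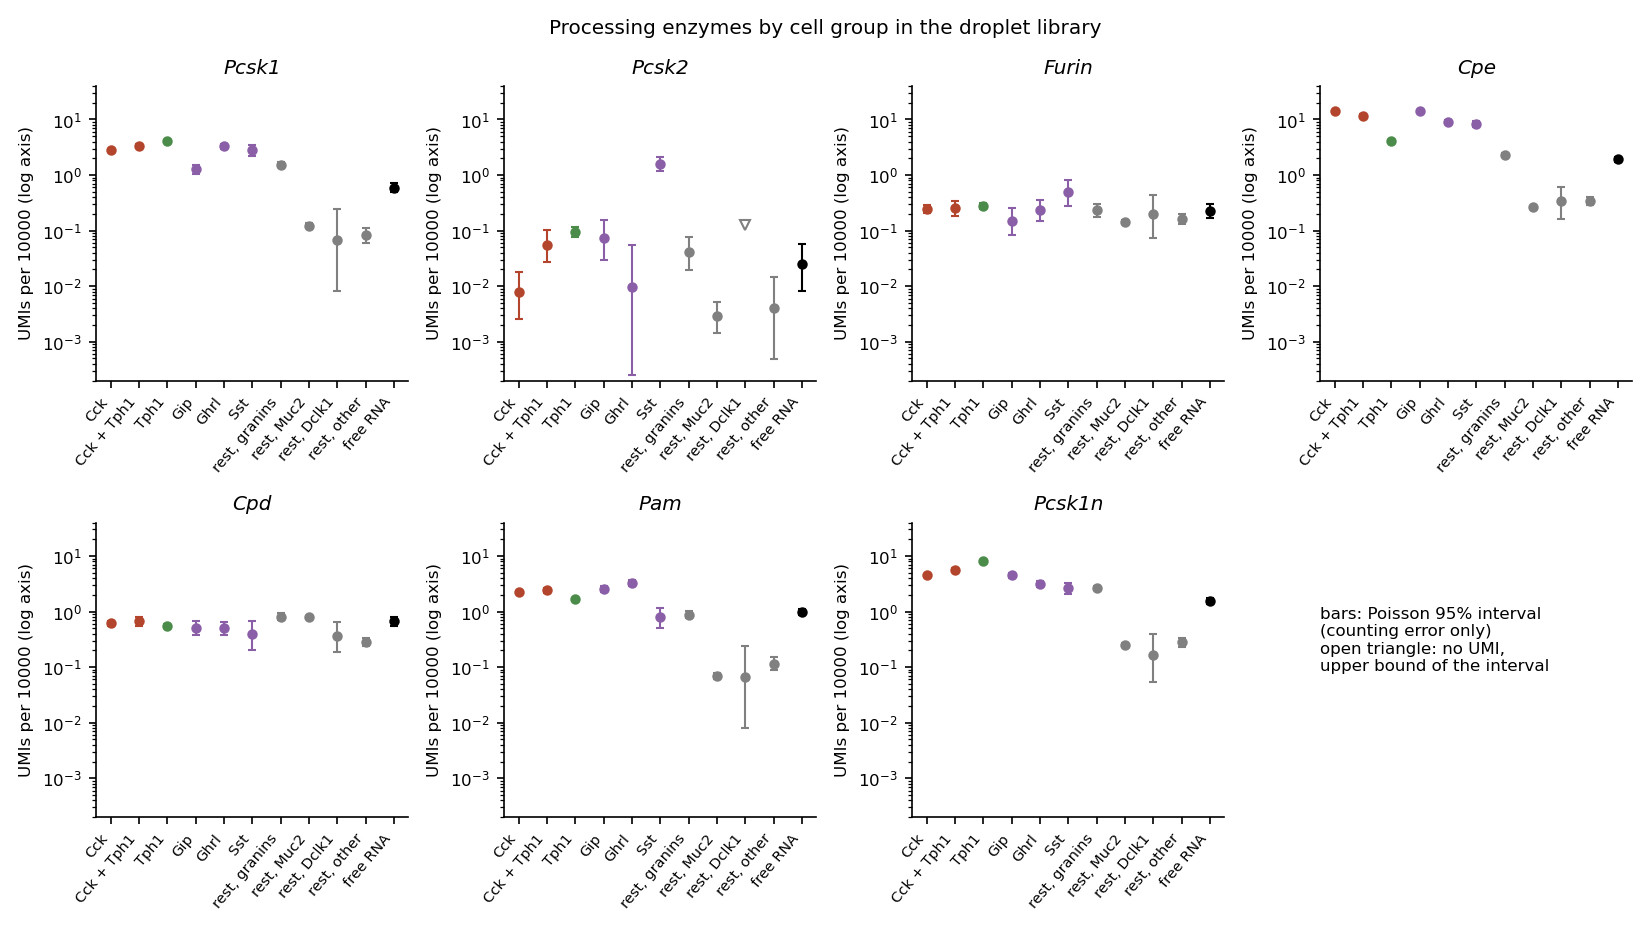
Each panel plots 1 member in UMIs per 10000 (log axis) in the droplet cell groups and in barcodes with 1 to 100 UMIs (free RNA), with exact Poisson 95% intervals from pooled UMIs of 1 library; the open triangle is the upper bound where no UMI was found. Cpe is highest in Gip and Cck cells (14.1 and 14.0), Pcsk1n in Tph1 cells (8.24) and Pcsk2 in Sst cells (1.60).

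Pcsk1 was at 4.08 UMIs per 10000 in Tph1 cells (3.95 to 4.21), above 3.32 in cells with both Cck and Tph1, 3.30 in Ghrl cells, 2.78 in Sst cells and 2.78 in Cck cells without Tph1. Among these the levels of Cck+Tph1, Ghrl and Sst cells had overlapping intervals. Gip cells were lowest of the hormone groups at 1.28 (1.06 to 1.53), which was 0.388 times the Ghrl level (0.312 to 0.479). With hormone UMIs left out of the total the order turned, with Ghrl cells at 5.24 and cells with both Cck and Tph1 at 4.66 above Tph1 cells at 4.36, and the ratio of Cck to Tph1 cells was 0.971 in place of 0.711. Among cells over the limit of 3892 UMIs, Tph1 cells held 3.34 and the ratio of Cck to Tph1 cells was 0.864. Granin cells of the rest held 1.53 and Muc2+ cells 0.123, the latter below the 0.593 of free RNA barcodes.

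Pcsk2 was rare outside Sst cells. The 54 Sst cells held 49 of its UMIs, 26.5% of all in 0.571% of the cells, a level of 1.60 (1.19 to 2.12). Tph1 cells held more of its UMIs, 90 of 185 (48.6%) in 26.4% of the cells, at a lower level of 0.0938 (0.0754 to 0.115). Gip cells were at 0.0751 (0.0302 to 0.155), an interval that overlapped that of Tph1 cells. Cck cells without Tph1 held 5 UMIs, a level of 0.00776 (0.00252 to 0.0181) that was no higher than the 0.0249 of the free RNA barcodes. The Sst level was 17.1 times the Tph1 level (11.8 to 24.5).

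By cells, Pcsk2 was found in 29.6% of Sst cells, in 3.17% of Tph1 cells and in 0.237% of the rest without granins, at median depths of 5413, 3225 and 7510 UMIs. After each cell was thinned to 2000 UMIs these shares were 18.5%, 1.89% and 0.0790%, with 58 Tph1 cells under that depth left out. Of the 54 Sst cells, 10 held UMIs of both Pcsk1 and Pcsk2, 25 of Pcsk1 only, 6 of Pcsk2 only and 13 of neither. Both convertases were thus found in the same Sst cells as well as apart, at a depth that does not show absence.

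Furin was at 0.247 in Cck cells, 0.275 in Tph1 cells and 0.235 in the Gip, Ghrl or Sst group, with overlapping intervals, and at 0.152 (0.141 to 0.164) in the rest. The rest held 57.4% of its UMIs and 57.1% of the cells. Sst cells had its highest level, 0.491, from 15 UMIs (0.275 to 0.810). Free RNA barcodes held 0.229 (0.168 to 0.306), an interval that overlapped those of all the hormone groups. That level is the make-up of free RNA and not its amount in a cell. The part of free RNA in the Furin levels was not tested.

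Cpe levels separated Tph1 cells from the other hormone groups. Gip cells at 14.1 (13.3 to 14.9) and Cck cells without Tph1 at 14.0 (13.7 to 14.3) did not differ beyond counting error. Cells with both Cck and Tph1 were at 11.7, Ghrl cells at 8.99 (8.41 to 9.59), Sst cells at 8.42 (7.42 to 9.51) and Tph1 cells at 4.06 (3.93 to 4.19). The Cck group, 13.2% of cells, held 57.7% of all Cpe UMIs, and its level was 3.33 times that of Tph1 cells (3.21 to 3.45), or 4.55 times with hormone UMIs left out. A Cpe UMI was found in 99.4% of Cck cells, 72.3% of Tph1 cells and 16.5% of the rest without granins, and in 89.9%, 54.7% and 4.90% after thinning. The rest without granins held Cpe at 0.274, below the 1.91 of free RNA barcodes, and the part of free RNA in its share was not tested.

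Cpd was at 0.626 in Cck cells, 0.549 in Tph1 cells, 0.491 in the Gip, Ghrl or Sst group and 0.739 in the rest, which held 74.7% of its UMIs. Free RNA barcodes held 0.662 (0.555 to 0.785), and none of the 3 hormone groups exceeded that level. With hormone UMIs left out of the total, Cpd was highest in Cck cells, at 0.915 against 0.744 in the rest. Cpd was the one member with a larger share of cells with a UMI in the rest without granins (45.0%) than in the Cck group (33.1%), and after thinning the shares were 15.6% and 10.8%.

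Pam was at 3.29 (2.94 to 3.66) in Ghrl cells, 2.57 (2.25 to 2.91) in Gip cells, 2.42 in cells with Cck and Tph1, 2.21 in Cck cells without Tph1 and 1.68 (1.60 to 1.76) in Tph1 cells. Gip, Cck+Tph1 and Cck cells had overlapping intervals. Sst cells were lowest of the hormone groups at 0.786 (0.504 to 1.17), which was 0.239 times the Ghrl level (0.151 to 0.362). The rest without granins held 0.0741 (0.0662 to 0.0826) and free RNA barcodes 0.981. Whether Pam levels go with the amidation of a cell's hormone was not tested.

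Pcsk1n was highest in Tph1 cells, at 8.24 (8.06 to 8.43), which held 54.7% of its UMIs, and remained so without hormone UMIs, at 8.83 against 7.94 in cells with both Cck and Tph1. It was at 5.66 in cells with both Cck and Tph1, at 4.62 and 4.51 in Cck and Gip cells with overlapping intervals, at 3.12 in Ghrl cells and at 2.65 in Sst cells. The ratio of Cck to Tph1 cells was 0.588, and 0.803 without hormone UMIs. Among cells over the limit of 3892 UMIs, Tph1 cells held 5.32 and this ratio was 0.905. Cells with both Cck and Tph1 were not measured apart at that limit.

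Pcsk1, Cpe and Pam, the enzymes of the successive steps, were also counted cell by cell. UMIs of all 3 were found together in 56.6% of Cck cells, 27.0% of the shallower Tph1 cells and 1.84% of the rest. Among the hormone groups this share was 70.1% in Ghrl, 44.4% in Gip and 27.8% in Sst cells. Pcsk1 with Cpe after thinning was in 39.3% of Cck, 31.5% of Tph1 and 1.15% of other cells.

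Within the Cck group, the pooled levels of Cpe, Pcsk1 and Pam were higher in the cells with more Cck. A split made after the data were seen compared 279 cells with Cck over 2000 with 251 cells at 500 to 1000 UMIs per 10000. Cpe was at 18.1 against 9.39, a ratio of 1.93 (1.82 to 2.05), Pcsk1 at 3.66 against 2.43 and Pam at 2.86 against 1.91, while Pcsk1n was at 3.74 against 4.73. Without hormone UMIs in the total these ratios were 2.52, 1.97, 1.96 and 1.03. The 716 cells in between held Cpe at 13.2, Pcsk1 at 2.77, Pam at 2.14 and Pcsk1n at 5.36, its highest level here. After thinning, the shares of cells with Pcsk1 were 44.2%, 40.4% and 49.5% from low to high Cck. For Pam they were 32.7%, 34.9% and 40.9%, and for both genes the intervals overlapped. For Cpe they were 81.3%, 90.8% and 95.3%, without overlap between the lowest and the highest Cck. A further split, by Gcg or Pyy of at least 20, set 385 cells beside 861 and gave ratios of 1.02 for Pcsk1, 1.07 for Cpe, 0.930 for Pam and 1.14 for Pcsk1n. These 4 genes thus differed little between Cck cells with and without the hormones of the distal gut.

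Likeness of pattern was measured over 10 cell groups as the root mean square difference of centered log2(UMIs per 10000 + 0.1), for 7486 genes with at least 500 UMIs. Nearest to Pcsk1 were Peg3 at 0.413, Scg3 at 0.465 and Bex2 at 0.484, against a median of 1.85 over all genes. Pcsk1n was nearest to Cacna2d1 at 0.190, Bex2 at 0.283 and Insm1 at 0.458, with a median of 1.80. Cpe and Pam shared Aplp1 as the nearest gene, at 0.476 and 0.460. It was followed by Scg5 at 0.645 and Scg3 at 0.680 for Cpe, and by Pcsk1n at 0.588 and Wbp5 at 0.594 for Pam. Pcsk2 held too few UMIs for this measure.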

How the data were processed

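The members and gene lists were chosen with earlier results of these data known. Bulk reads were, per the submitters' processing notes, trimmed with Trim Galore 0.6.7 and quantified with Salmon 1.6.0 (GRCm39). The authors summed them per gene with tximeta and divided by DESeq2 normalization factors, and the deposited signal values are these normalized counts. They are not whole, so no count model was used and depth in reads is unknown. All 4 bulk groups carry record titles that name CCK+ cells, and the cell-type labels and the table's columns were used instead. The droplet matrix holds UMI counts, deposited without normalization, from Cell Ranger 2.0.1 (mm10).

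Bulk tests used limma 3.58.1 in R 4.3.3, with a mean-variance trend, 4 group means in 1 fit and 8 residual degrees of freedom. Scripts were tested on simulated data. Libraries with the same letter in their names were taken as 1 mouse. Deviations from group means correlated at 0.0463 to 0.0650 over genes within a letter (n = 6) and -0.0455 to -0.00973 between letters (n = 12). Such deviations cancel within a group, so the values between letters are not independent of those within letters. The pairing of libraries is not settled by them. Replicates of a group are separate mice. Genes outside the 7 were named from lists, a few always and up to 4 a list by the size of their change in CCK+ against CCK- cells, or because a list's few feeding calls fell on them. Ghrl, Sst and the endocrine markers given with refeeding were named after the data were seen. Droplet levels used Python 3.11.15, pandas 2.3.3 and scipy 1.17.1, with thinning to 2000 UMIs. Alternatives covered pseudocounts, a filter on low values, scaling, the trend, the replicate block, leaving out libraries, and the cell limits. 1 gene of a list is not reported here.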

Additional observations from a re-analysis of the deposited data

How the results depend on the processing

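The count of genes called in CCK+ against CCK- cells was 7431 and ranged from 6520 to 7618 with 1 library left out, and it was 2169 in fasted mice alone. For refed against fasted CCK+ cells it was 561, with 103 to 876 on leaving out 1 library, 119 without the mean-variance trend and 0 with only the 2 groups compared. The lowest of these counts came without the CCK+ library of refed mouse D and the highest without that of fasted mouse A. For CCK- cells it was 272, with 79 to 268, 66 and 63 in the same order. The interaction called 1 gene, 1 to 6 with 1 library left out, 2 without the trend and 0 with a pseudocount of 10. Fewer samples or groups enter some of these fits, and for the others the cause was not tested.

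The main limma fit took libraries of the same letter as independent. With the mouse as a replicate block the counts were 7671, 576, 283 and 1, and among the members the block changed the Cpd call alone (adjusted p = 0.0506). For CCK+ against CCK- the block gave larger adjusted p values to the members called higher. These were 3.77e-07 for Pcsk1, 1.14e-07 for Cpe, 2.06e-06 for Pcsk1n, 1.58e-06 for Pam and 0.00648 for Pcsk2. Scaling to equal sums turned CCK+ against CCK- to 0.11 for Cpd, 0.0545 for Pcsk6 and 0.24 for Pcsk7, and turned Furin after refeeding in CCK- cells to 0.0769 (0.0107 with equal upper quartiles). Leaving out 1 library also let the sign of changes that were not called vary: after refeeding in CCK+ cells, Pcsk2 from -0.0619 to 0.54 and Cpd from -0.0216 to 0.15. In CCK- cells these ranges were -0.42 to 0.50 for Pcsk2, -0.36 to 0.66 for Pcsk1n, -0.29 to 0.11 for Pam, -0.12 to 0.19 for Furin and -0.18 to 0.0301 for Cpd. For the interaction they were -0.30 to 0.62 for Pcsk2 and -0.15 to 0.87 for Pcsk1n, and for CCK+ against CCK- -0.59 to 0.0855 for Pcsk6 and -0.27 to 0.0281 for Pcsk7.

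In the droplet library 4 to 6 members were at least 2-fold higher in Cck cells over the settings tried: 6, with Furin added, when hormone UMIs were left out of the total, and 4, without Pcsk2, with doubled limits or with cells meeting more than 1 limit left out. Of 224 droplet levels under other settings, 83 moved beyond their counting interval. Depth limits Pcsk2 most, and the single library gives no variation between animals.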

Other observations

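Other genes of hormone processing and the granule are given here as values from 1 library with no test. Scg2 was at 29.8 UMIs per 10000 in Cck cells and 0.818 in Tph1 cells, whereas Scg5 (2.40 and 2.34) and Scg3 (2.21 and 2.31) were nearly level between them. Sst cells, the group with the highest Pcsk2 level, also had the highest Scg5, at 4.13 (3.44 to 4.91), and the highest Ctsl, at 5.14 (4.37 to 6.01), against 1.95 in Ghrl and 0.503 in Cck cells.

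Qpct, Tpst1, Tpst2 and Cpn1 were higher in Cck than in Tph1 cells. Qpct was at 1.11 in Cck cells, 0.0917 in Tph1 cells and 0 of 931598 UMIs in Gip cells. Tpst1 was at 0.839 in Cck, 0.462 in Tph1 and 0.0295 in other cells, and Tpst2 at 0.906, 0.443 and 0.0884. Cpn1 was at 0.702 in Cck, 0.265 in Tph1 and 0.0169 in other cells. Mboat4, the ghrelin acyltransferase gene, was at 0.958 in Ghrl cells (0.778 to 1.17), 0.589 in Sst cells and 0.0498 in Cck cells. Pcsk5 was highest outside the EECs, at 0.393 in other cells without granins, Muc2 or Dclk1 and 0.0243 in Cck cells.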
